A study of Mus musculus with 12 samples.

Results

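Matrix metalloproteinases (MMPs) are zinc enzymes that cut collagens and other proteins of the extracellular matrix, and tissue inhibitors of metalloproteinases (TIMPs) are small secreted proteins that bind their active site. The genes described here are a list of 10, namely Mmp2, Mmp3, Mmp8, Mmp9, Mmp10, Mmp12, Mmp13, Mmp14, Timp1 and Timp3. All 10 have 1 array row each, and they stand among 22180 measured genes. The list was taken by name and not by any measured value, although earlier results of these data were known when it was drawn up.

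Most MMPs are made as inactive precursors, and their transcription rises with cytokines such as IL-1 through the transcription factor AP-1. In skin, fibroblasts, keratinocytes at wound edges, neutrophils and macrophages each make a different set of them. Of the collagenases, Mmp13 is the main one of rodent stromal and epithelial cells, while Mmp8 is stored in the granules of neutrophils.

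Dorsal skin of C57Bl/6 mice was measured on 12 expression arrays, each of RNA pooled from males and females. Mice labelled IL-17C+ are transgenic for the cytokine IL-17C, those labelled IL-17C+KO are named as carrying that transgene together with loss of IL-6, and both were sampled at sites labelled involved and uninvolved. Mice labelled IL-6KO lack IL-6 without the transgene, and WT mice have neither change. Each group had n = 2 pools, 1 at 10 weeks and 1 at 14 weeks of age, of 5 mice each, except 4 mice each for IL-6KO and WT at 10 weeks. The characteristics in the labels call the IL-6KO pools involved and the WT pools uninvolved, although neither title names a site. The sources used here do not give the promoter of the transgene, the number of lines, or whether involved and uninvolved pools share mice.

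Levels are log2 of the deposited array intensities, differences are log2 differences with their moderated standard error, and a gene was called at a limma adjusted p under 0.05 over all 22180 genes. The arrays correlated with each other at 0.931 to 0.986, and their medians lay between 3.97 and 4.23. A level near that median is close to the dim end of the array, so the size of a fold change from it is uncertain. With 2 pools a group, p-values measure the spread between these pools and not between mice. In whole skin, fewer cells of a type and less RNA per cell cannot be told apart.

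The genes that the labels name were read first. Il17c read 5.81 and 6.63 (10 and 14 weeks) in skin labelled IL-17C+ involved. IL-17C+ uninvolved skin had 4.74 and 4.16, IL-17C+KO involved skin 5.32 and 5.62, and IL-17C+KO uninvolved skin 6.16 and 6.25. In skin labelled IL-6KO, which lacks the transgene by its label, it read 6.30 and 6.17, and in WT skin 4.67 and 4.96. Il6 was highest, at 4.93 and 5.00, in skin labelled IL-17C+KO uninvolved, and read 2.68 and 2.79 in IL-6KO and 2.92 and 2.88 in WT skin. The sources used here do not say which part of either gene the array row reads, so this is no check of the deletion. Every group name below is therefore a label, and each direction rests on it. Epidermal (Krt14, Krt10) and dermal (Col1a1, Dcn) markers lay above the array median in all 12 pools.

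A run of neighbouring genes on mouse chromosome 9 holds 5 of the members. In the RefSeq order (GRCm38.p6) its 10 consecutive protein-coding genes are Mmp13, Mmp12, Mmp1b, Mmp3, Mmp1a, Mmp10, Mmp8, Mmp27, Mmp20 and Mmp7. The promoters below are shown because the members that rose together can be set beside neighbours that did not pass. RefSeq promoter windows (250 bases before to 50 after the start) were found for 8 of the 10 members and not for Mmp2 and Mmp9. Capitals mark the AP-1 motif TGANTCA and the TATA motif TATAAA, each searched on both strands, and no 2 matches overlap. The windows of Timp1 and Timp3 have no capitals because they hold neither.
Mmp13, chr9:7272264-7272563, plus strand: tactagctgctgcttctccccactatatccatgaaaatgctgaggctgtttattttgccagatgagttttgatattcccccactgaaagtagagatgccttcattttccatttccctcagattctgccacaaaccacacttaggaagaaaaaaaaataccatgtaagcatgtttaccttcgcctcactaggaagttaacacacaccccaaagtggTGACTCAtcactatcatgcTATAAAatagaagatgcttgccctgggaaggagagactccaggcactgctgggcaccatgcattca
Mmp3, chr9:7445572-7445871, plus strand: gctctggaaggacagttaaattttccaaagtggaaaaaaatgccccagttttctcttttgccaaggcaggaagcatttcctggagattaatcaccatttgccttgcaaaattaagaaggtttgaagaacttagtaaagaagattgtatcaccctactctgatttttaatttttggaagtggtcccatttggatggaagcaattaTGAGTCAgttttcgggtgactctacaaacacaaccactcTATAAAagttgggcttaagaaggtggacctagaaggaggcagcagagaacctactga
Mmp10, chr9:7502092-7502391, plus strand: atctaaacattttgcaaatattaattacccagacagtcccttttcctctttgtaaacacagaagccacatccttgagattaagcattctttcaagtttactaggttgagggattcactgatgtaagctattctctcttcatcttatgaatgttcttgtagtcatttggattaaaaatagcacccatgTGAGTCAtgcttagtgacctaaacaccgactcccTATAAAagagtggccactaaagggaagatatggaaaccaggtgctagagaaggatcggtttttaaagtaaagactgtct
Mmp8, chr9:7558179-7558478, plus strand: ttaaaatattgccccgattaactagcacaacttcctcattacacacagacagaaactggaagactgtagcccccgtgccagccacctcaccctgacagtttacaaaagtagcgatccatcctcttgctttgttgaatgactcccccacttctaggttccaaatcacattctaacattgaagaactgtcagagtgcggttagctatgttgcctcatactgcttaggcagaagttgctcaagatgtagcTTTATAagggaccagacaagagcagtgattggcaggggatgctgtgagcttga
Timp1, chrX:20869916-20870215, plus strand: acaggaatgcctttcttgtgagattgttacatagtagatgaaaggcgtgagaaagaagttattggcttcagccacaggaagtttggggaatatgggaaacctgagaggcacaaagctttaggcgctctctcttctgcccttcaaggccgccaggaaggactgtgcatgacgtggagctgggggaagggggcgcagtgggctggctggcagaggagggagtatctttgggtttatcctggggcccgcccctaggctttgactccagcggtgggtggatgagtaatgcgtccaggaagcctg
Timp3, chr10:86300162-86300461, plus strand: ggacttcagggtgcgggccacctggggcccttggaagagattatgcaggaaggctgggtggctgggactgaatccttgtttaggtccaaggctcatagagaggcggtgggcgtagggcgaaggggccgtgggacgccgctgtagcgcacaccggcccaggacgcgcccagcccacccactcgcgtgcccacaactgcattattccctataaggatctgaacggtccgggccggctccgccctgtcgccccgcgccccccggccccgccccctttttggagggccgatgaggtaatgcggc

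An AP-1 match begins at position -35 in Mmp13, at -46 in Mmp3, at -63 in Mmp10 and at -44 before the second listed start of Mmp12. The windows of Mmp8, Mmp14, Timp1, Timp3 and the first start of Mmp12 hold none of these letters. Of all 32851 promoter windows in the table, 7.81% hold an AP-1 match and 13.6% a TATA match. The ETS motif AGGAAG is common, in 35.4% of all windows, and of the 8 members Mmp10 alone has no match. Timp3 has 24 CpG dinucleotides in its window, against 1 each in Mmp13 and Mmp3 and a median of 7 over all windows. A match in these letters describes the sequence only.

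**Figure D1:**
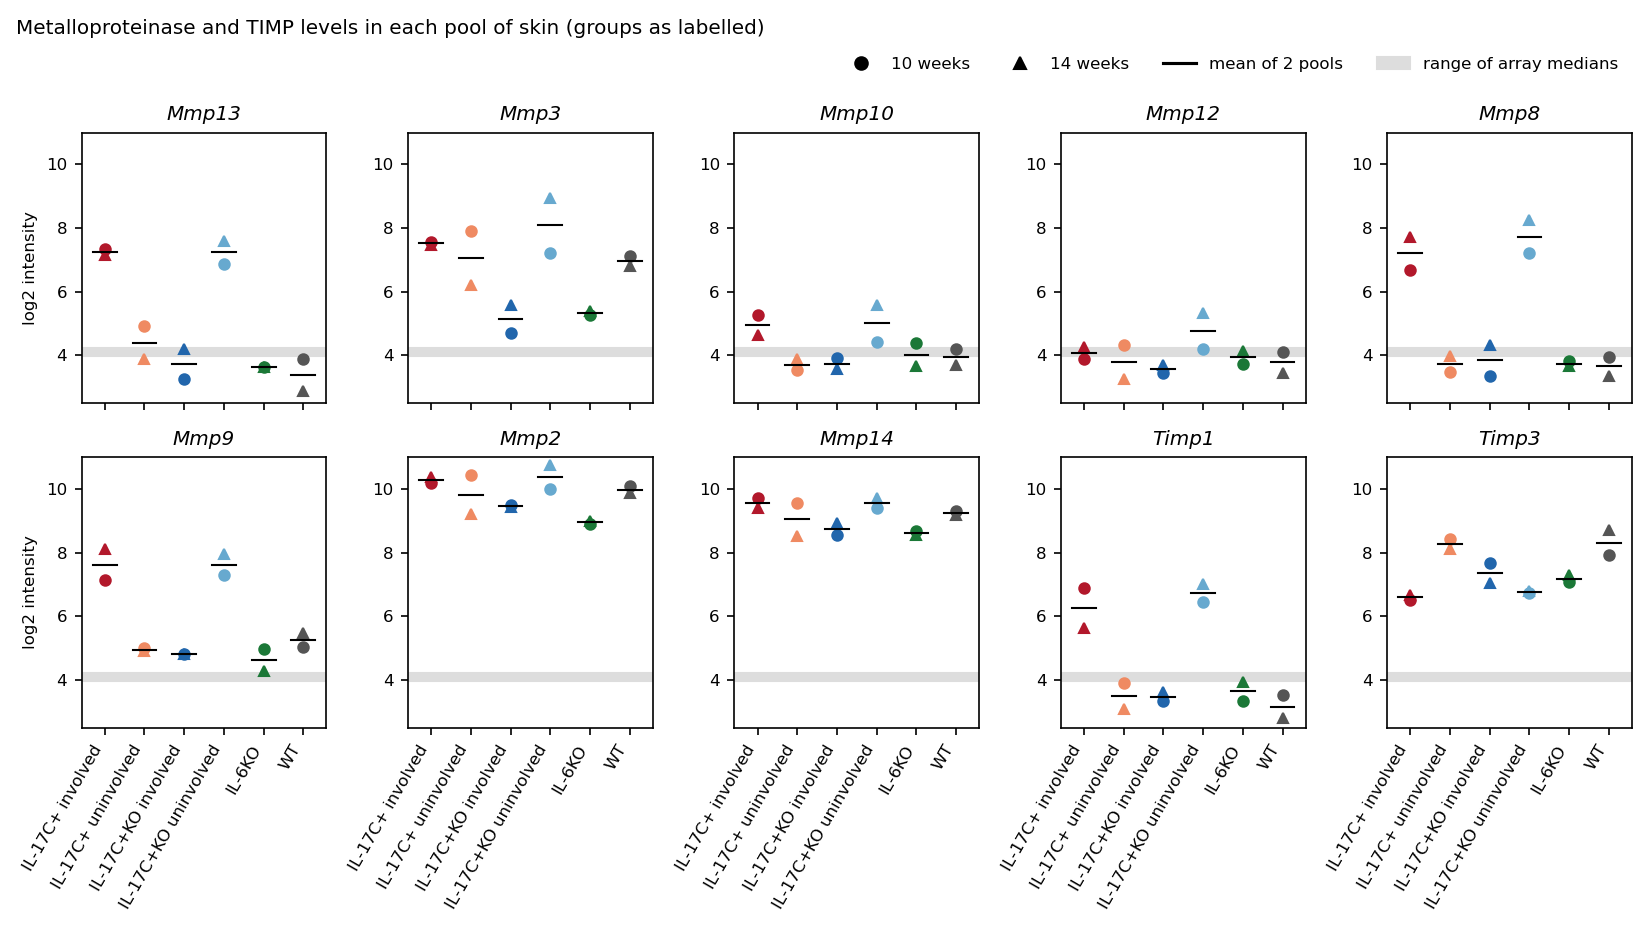
Log2 intensity (vertical axis) of the 10 genes in every pool, by labelled group (horizontal axis). Circles are 10-week and triangles 14-week pools, bars are the mean of 2 pools, and the grey band is the range of array medians (3.97 to 4.23). Mmp13, Mmp8, Mmp9, Timp1 and the dim Mmp10 have their 4 highest pools in IL-17C+ involved and IL-17C+KO uninvolved skin, and Timp3 has its 4 lowest there.

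In IL-17C+ involved skin, both collagenases, the gelatinase Mmp9 and the inhibitor Timp1 rose over WT, while the inhibitor Timp3 fell. Mmp13, a collagenase of fibrillar collagen, read 7.32 and 7.16 at 10 and 14 weeks in skin labelled IL-17C+ involved, against 3.88 and 2.87 in WT skin. It rose by 3.87 ± 0.43 (14.6-fold, adjusted p = 0.000854), from WT levels below the array median. Mmp8, the collagenase of neutrophils, read 6.69 and 7.70 in IL-17C+ involved skin, against 3.96 and 3.36 in WT. Its rise was 3.54 ± 0.37 (11.6-fold, adjusted p = 0.000582). Mmp9, which digests denatured collagen and the collagen of basement membranes, read 7.13 and 8.10 in IL-17C+ involved skin, against 5.05 and 5.46 in WT. This rise, 2.36 ± 0.34 (5.13-fold, adjusted p = 0.00363), started from a WT level above the array median in both pools.

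The 2 inhibitors went opposite ways. Timp1, a soluble inhibitor of most secreted MMPs, read 6.89 and 5.64 in IL-17C+ involved skin, against 3.52 and 2.81 in WT, a rise of 3.10 ± 0.41 (8.57-fold, adjusted p = 0.00236). Timp3, which stays bound to the matrix and also inhibits ADAM17, read 6.51 and 6.67 in IL-17C+ involved skin, against 7.94 and 8.70 in WT. It fell by 1.73 on the log2 scale (SE 0.31, adjusted p = 0.0138), and neither pair of pools overlapped. In this comparison 4 of 10 members were higher and 1 lower, where 1.8% of all genes were called (1.1% higher and 0.699% lower). The median difference of the members was 0.78 against 0.01 over all genes.

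The other 5 members did not pass. The stromelysin Mmp10 differed by 1.01 ± 0.38 (adjusted p = 0.282) and the stromelysin Mmp3 by 0.55 ± 0.56 (adjusted p = 0.786). Mmp2, Mmp14 and Mmp12 differed by 0.29 to 0.31, each with adjusted p of 0.793 or more. Mmp14 is the membrane-bound enzyme that activates the precursor of Mmp2, and both were high in WT skin already, at 9.30 and 9.20 for Mmp14 and 10.09 and 9.88 for Mmp2. The count of 5 was 3 without the 10-week IL-17C+ involved pool (Timp1 and Timp3 lost their calls, adjusted p = 0.0545 and 0.184). It was 3 as well without the 14-week one (Mmp9 and Timp3, adjusted p = 0.0678 and 0.107). Timp3 also lost its call without the 14-week WT pool (adjusted p = 0.113). Single pools also moved the size of some rises. That of Mmp8 was 4.17 without the 10-week and 2.90 without the 14-week WT pool (18.0-fold and 7.49-fold). That of Timp1 was 2.48 without the 10-week and 3.72 without the 14-week IL-17C+ involved pool (5.59-fold and 13.1-fold).

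**Figure D2:**
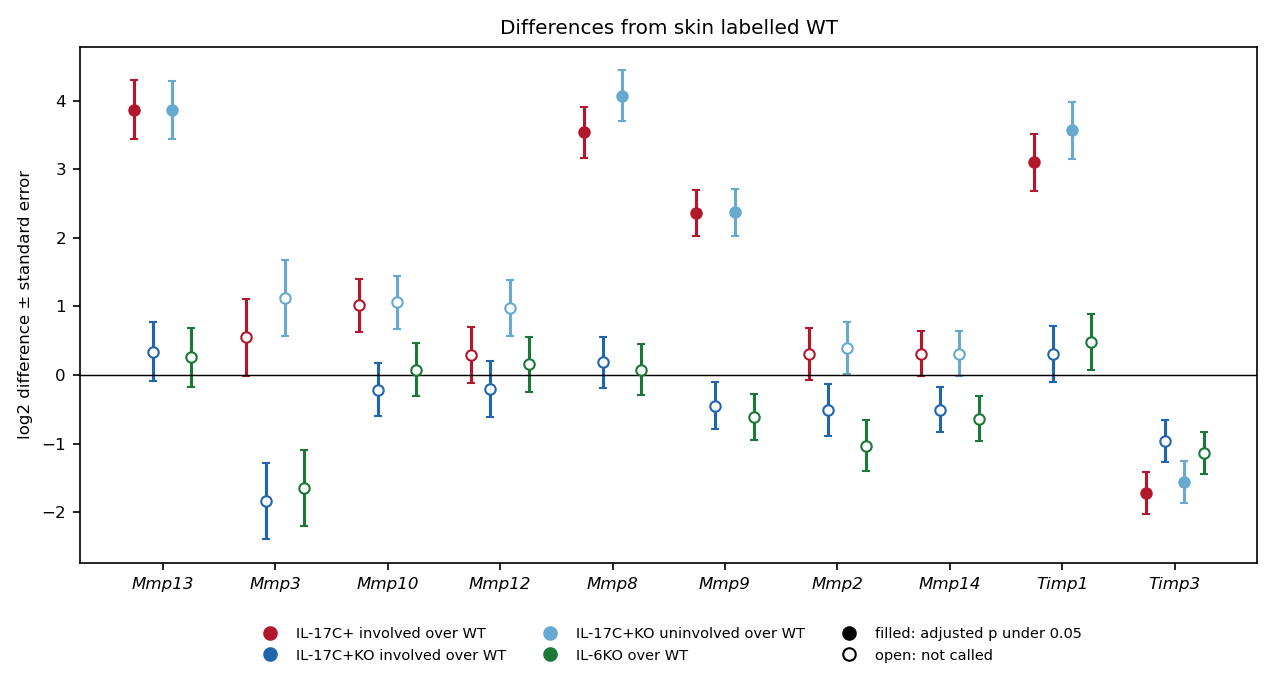
Log2 difference from skin labelled WT (vertical axis, bars are moderated standard errors) for each gene (horizontal axis) in 4 comparisons that share the WT pools. Filled points passed at an adjusted p under 0.05. Mmp13, Mmp8, Mmp9, Timp1 and Timp3 are filled for IL-17C+ involved and IL-17C+KO uninvolved skin, and no point is filled for IL-17C+KO involved or IL-6KO skin.

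Within mice labelled IL-17C+, the same 5 genes were called between sites, with no other member. Mmp8 rose by 3.48 ± 0.37 (adjusted p = 0.000702), Mmp13 by 2.84 ± 0.43 (adjusted p = 0.00535), Timp1 by 2.77 ± 0.41 (adjusted p = 0.00499) and Mmp9 by 2.67 ± 0.34 (adjusted p = 0.00178) in involved over uninvolved skin. Timp3 read 8.44 and 8.12 in uninvolved skin and fell by 1.68 in involved skin (SE 0.31, adjusted p = 0.0163). These are 5 of 10 members, against 1.61% of all genes (0.775% higher and 0.834% lower). The involved pools are those of the comparison with WT, so the pair of results is not independent. Without the 10-week IL-17C+ involved pool 2 members were called (Mmp13, Timp1 and Timp3 did not pass), and without the 14-week one 3 (Mmp13 and Timp3 did not pass). Without the 14-week IL-17C+ uninvolved pool the count was 3 as well (Mmp13 and Timp1 did not pass, adjusted p = 0.0532 and 0.0508). The rise of Timp1 was 2.16 without the 10-week and 3.39 without the 14-week IL-17C+ involved pool.

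Skin labelled IL-17C+ uninvolved had no member called against WT (limma, 0 of 10, against 0.0541% of all genes; 1 member had an unadjusted p under 0.05). That member was Mmp13, at 4.93 and 3.87 in IL-17C+ uninvolved skin, against 3.88 and 2.87 in WT, a difference of 1.02 ± 0.43 (adjusted p = 0.846). The pools of the 2 groups overlapped. Mmp3, Mmp2 and Mmp14 differed widely between the pools of IL-17C+ uninvolved skin. Mmp3 read 7.92 at 10 weeks and 6.21 at 14 weeks, Mmp2 10.43 and 9.20, and Mmp14 9.57 and 8.53.

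In skin labelled IL-17C+KO, where Il6 itself reached its highest levels of the series, the pattern sat on the other site label. Skin labelled IL-17C+KO uninvolved had Mmp13 at 6.88 and 7.60, Mmp8 at 7.21 and 8.24, Mmp9 at 7.30 and 7.95 and Timp1 at 6.44 and 7.02. Its Timp3 was low, at 6.73 and 6.78. Skin labelled IL-17C+KO involved had Mmp13 at 3.24 and 4.19, Mmp8 at 3.36 and 4.33, Mmp9 at 4.81 and 4.81, and Timp1 at 3.33 and 3.61. The WT and IL-6KO pools together spanned 2.87 to 3.88 for Mmp13, 3.36 to 3.96 for Mmp8, 4.29 to 5.46 for Mmp9 and 2.81 to 3.94 for Timp1. The group means of IL-17C+KO uninvolved and IL-17C+ involved skin were 7.24 ± 0.51 and 7.24 ± 0.12 for Mmp13, and 7.62 ± 0.46 and 7.62 ± 0.69 for Mmp9 (SD, n = 2 each). They were 7.73 ± 0.73 and 7.20 ± 0.72 for Mmp8, and 6.73 ± 0.41 and 6.26 ± 0.88 for Timp1 (SD, n = 2 each). These groups were not tested against each other.

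Against WT, IL-17C+KO uninvolved skin had the same 4 members higher and Timp3 lower, where 1.39% of all genes were called (1.12% higher and 0.271% lower). Mmp8 rose by 4.07 ± 0.37 (16.8-fold, adjusted p = 0.000198), Mmp13 by 3.86 ± 0.43 (14.5-fold, adjusted p = 0.000809), Timp1 by 3.56 ± 0.41 (11.8-fold, adjusted p = 0.000933) and Mmp9 by 2.37 ± 0.34 (5.17-fold, adjusted p = 0.00443). Timp3 fell by 1.56 (SE 0.31, adjusted p = 0.0278). Both this comparison and that of IL-17C+ involved skin use the same WT pools. The count of 5 was 3 without the 14-week IL-17C+KO uninvolved pool, where Mmp9 and Timp3 did not pass (adjusted p = 0.0745 and 0.176). Timp3 also did not pass without the 10-week IL-17C+KO uninvolved pool or the 14-week WT pool (adjusted p = 0.251 and 0.114). The rise of Mmp8 was 4.70 without the 10-week and 3.43 without the 14-week WT pool (26.0-fold and 10.8-fold).

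Skin labelled IL-6KO shares the loss of IL-6 with IL-17C+KO skin by its label. Over it, IL-17C+KO uninvolved skin had 4 of 10 members higher, against 0.397% of all genes called either way and 0.392% higher: Mmp8 by 3.99 ± 0.37 (adjusted p = 0.000315), Mmp13 by 3.60 ± 0.43 (adjusted p = 0.00189), Timp1 by 3.09 ± 0.41 (adjusted p = 0.00456) and Mmp9 by 2.99 ± 0.34 (adjusted p = 0.00123). Timp3 differed by -0.43 ± 0.31 here (adjusted p = 0.839), since IL-6KO skin read 7.07 and 7.29. Mmp3 differed by 2.77 ± 0.56 and just missed the threshold (adjusted p = 0.0594). Without the 14-week IL-17C+KO uninvolved pool only Mmp8 passed. Timp1 also did not pass without the 10-week IL-6KO pool (adjusted p = 0.114). IL-17C+KO involved skin had 0 of 10 members called over IL-6KO (limma, against 0.171% of all genes; 0 at an unadjusted p under 0.05).

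Between the sites of IL-17C+KO mice, 5 of 10 members were lower in skin labelled involved, against 0.505% of all genes called either way and 0.478% lower. Mmp8 fell by 3.88 (SE 0.37, adjusted p = 0.00034), Mmp13 by 3.52 (SE 0.43, adjusted p = 0.00224), Timp1 by 3.26 (SE 0.41, adjusted p = 0.00306), Mmp9 by 2.81 (SE 0.34, adjusted p = 0.00198) and Mmp3 by 2.96 (SE 0.56, adjusted p = 0.0376). Timp3 differed by 0.61 ± 0.31 (adjusted p = 0.896). Without the 14-week IL-17C+KO uninvolved pool only Mmp8 passed, and without the 10-week IL-17C+KO involved pool 3 members did (Mmp8, Mmp9 and Mmp13). The call of Mmp3 was also lost under 10 other alternatives, with adjusted p between 0.0526 and 0.177. The difference of Mmp3 was -3.93 without the 10-week and -1.98 without the 14-week IL-17C+KO uninvolved pool. That of Mmp13 was -2.89 without the 10-week and -4.15 without the 14-week IL-17C+KO involved pool.

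The 2 site differences were set against each other in 1 interaction term. It passed for 7 of 10 members, 6 of them negative and Timp3 positive, against 2.58% of all genes (1.15% positive and 1.43% negative). Mmp8, Mmp9, Mmp13 and Timp1 passed it with each pool left out in turn. For Mmp3, Mmp10 and Timp3 the call was lost in several such fits, and the count was 4 without the 10- or 14-week IL-17C+ involved pool, the 10-week IL-17C+KO involved pool or the 14-week IL-17C+KO uninvolved pool. The term rests on the site labels, which the Il17c level and these members set in opposite order in the 2 genotypes.

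At equal site labels the differences between IL-17C+KO and IL-17C+ skin had opposite signs. In involved skin, IL-17C+KO over IL-17C+, Mmp13 fell by 3.53 (SE 0.43, adjusted p = 0.00246), Mmp8 by 3.35 (SE 0.37, adjusted p = 0.00133), Mmp9 by 2.81 (SE 0.34, adjusted p = 0.00229) and Timp1 by 2.79 (SE 0.41, adjusted p = 0.00938). These 4 of 10 stand against 0.649% of all genes called either way and 0.419% lower, and Timp1 did not pass without the 10-week pool of IL-17C+ involved or of IL-17C+KO involved skin (adjusted p = 0.131 and 0.173). Here too Mmp13 differed by -2.89 and -4.16 without the 10- or 14-week IL-17C+KO involved pool, and Timp1 by -2.18 and -3.41 without the 10- or 14-week IL-17C+ involved pool. In uninvolved skin, IL-17C+KO over IL-17C+, Mmp8 rose by 4.01 ± 0.37 (adjusted p = 0.000216), Timp1 by 3.24 ± 0.41 (adjusted p = 0.00196), Mmp13 by 2.84 ± 0.43 (adjusted p = 0.0071) and Mmp9 by 2.68 ± 0.34 (adjusted p = 0.00193), and Timp3 fell by 1.52 (SE 0.31, adjusted p = 0.0425). That is 5 of 10, against 0.712% of all genes (0.541% higher and 0.171% lower), and 3 without the 14-week pool of IL-17C+ uninvolved or of IL-17C+KO uninvolved skin, where Mmp13 and Timp3 did not pass. Timp3 lost this call with any of 8 pools left out (adjusted p between 0.0628 and 0.356).

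Mmp3, Mmp2 and Mmp14 followed other orders, and their cell source was not tested. Mmp3, a stromelysin that cuts proteoglycans and activates other MMPs, read 7.56 and 7.48 in IL-17C+ involved skin. It had 7.92 and 6.21 in IL-17C+ uninvolved skin and 4.69 and 5.58 in IL-17C+KO involved skin. IL-17C+KO uninvolved skin had 7.22 and 8.96. In IL-6KO skin it read 5.26 and 5.38, and in WT skin 7.12 and 6.82. Its 4 lowest pools were thus those of IL-17C+KO involved and IL-6KO skin. Against WT, Mmp3 differed by -1.83 ± 0.56 in IL-17C+KO involved skin (adjusted p = 0.45) and by -1.65 ± 0.56 in IL-6KO skin (adjusted p = 0.365), neither passing.

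Mmp2, the gelatinase made by fibroblasts, was lowest in IL-6KO skin, at 8.90 and 9.01, against 10.09 and 9.88 in WT (-1.03 ± 0.38, adjusted p = 0.42). Mmp14 read 8.67 and 8.55 in IL-6KO skin, against 9.30 and 9.20 in WT (-0.64 ± 0.33, adjusted p = 0.656). For Timp3 the IL-6KO difference was -1.13 ± 0.31 (adjusted p = 0.189). No member passed in IL-6KO over WT (limma, 0 of 10, against 0.455% of all genes; 3 at an unadjusted p under 0.05), nor in IL-17C+KO involved over WT (0 of 10, against 0.0225%; 2 at an unadjusted p under 0.05). Over all 12 pools Mmp14 spanned 2.26-fold and Mmp2 3.62-fold, while Mmp8 spanned 29.6-fold and Mmp13 26.6-fold.

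Mmp10 and Mmp12 were dim. Mmp10, a stromelysin of keratinocytes at wound edges, was highest at 5.57 in the 14-week IL-17C+KO uninvolved and 5.27 in the 10-week IL-17C+ involved pool. Its 4 highest pools were those of IL-17C+ involved and IL-17C+KO uninvolved skin, as for Mmp13. The fourth stood at 4.42, close to 4.39 in the 10-week IL-6KO pool. Mmp10 lay above the array median in 5 of 12 pools. Mmp12, the macrophage elastase, lay above it in 5 of 12 as well and was called in none of the 13 comparisons. Its highest level, 5.32, was in the 14-week IL-17C+KO uninvolved pool. That pool also held the highest level of Mmp2, Mmp3, Mmp8, Mmp10, Mmp13, Mmp14 and Timp1.

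No member was called for age. For 14 over 10 weeks 0 of 10 were called (limma, 0% of all genes; 0 members at an unadjusted p under 0.05), with differences between -0.22 ± 0.24 for Timp1 and 0.46 ± 0.21 for Mmp8 (adjusted p = 0.756 and 0.59). A p that misses the threshold does not show equal levels, and the age gap of single groups could be wide, as for Mmp3 in IL-17C+KO uninvolved skin.

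Neighbours on chromosome 9 were called only in part. In both IL-17C+ involved and IL-17C+KO uninvolved skin over WT, Mmp13 and Mmp8 at separate places in the run rose, while Mmp12, Mmp1b, Mmp3, Mmp1a, Mmp10, Mmp20 and Mmp7 did not pass. The differences of these latter genes ran from -0.33 (Mmp7) to 1.01 (Mmp10) in IL-17C+ involved skin. In IL-17C+KO uninvolved skin they ran from -0.31 (Mmp7) to 1.12 (Mmp3). Whether the run moved together was not tested. Mmp27 read 4.58 and 4.68 in IL-17C+ involved skin, against 5.92 and 6.27 in WT, and fell by 1.46 (SE 0.32, adjusted p = 0.0395). In IL-17C+KO uninvolved skin its difference was -1.38 ± 0.32 and did not pass (adjusted p = 0.0592). Mmp1a and Mmp1b, close copies whose signals the array may not separate, stayed below every array median.

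**Figure D3:**
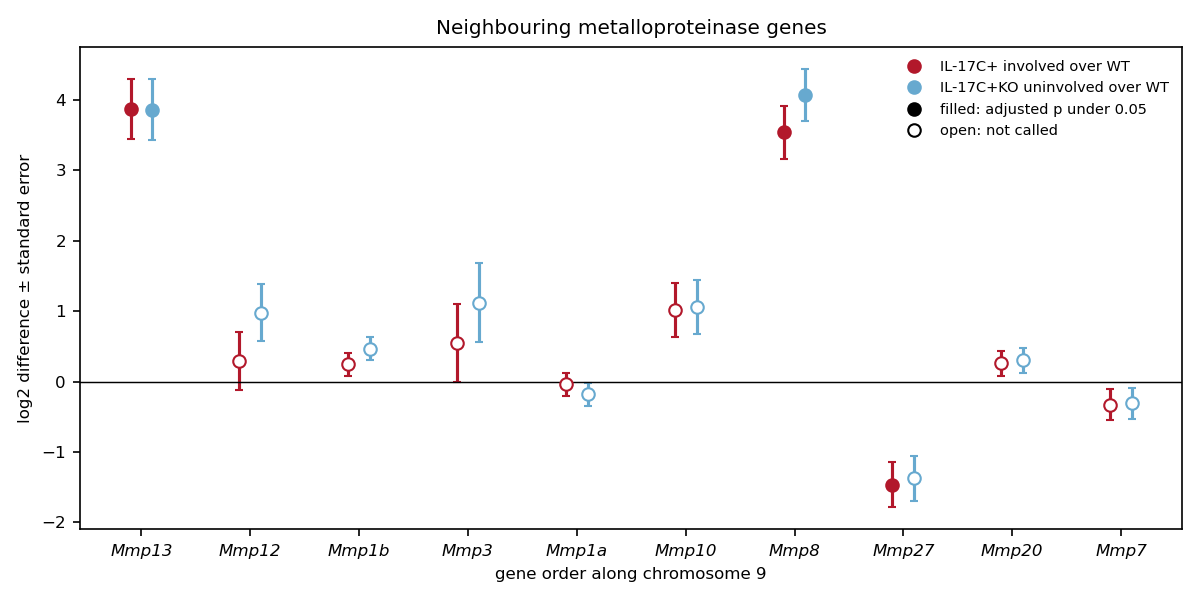
Log2 difference from WT (vertical axis, bars are moderated standard errors) for the 10 neighbouring metalloproteinase genes in their order on chromosome 9 (horizontal axis, not to scale). Filled points passed at an adjusted p under 0.05. Mmp13 and Mmp8 stand near 4 in both comparisons, and Mmp27 lies below 0.

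Elsewhere in the family few genes were called. Of the 14 other MMPs measured, Mmp11 rose in IL-17C+ involved (1.61 ± 0.26, adjusted p = 0.0098) and in IL-17C+KO uninvolved skin over WT (1.40 ± 0.26, adjusted p = 0.0227). Mmp19 rose in IL-17C+KO uninvolved skin (1.67 ± 0.33, adjusted p = 0.027) and differed by 1.35 ± 0.33 in IL-17C+ involved skin (adjusted p = 0.0585). That makes 1 higher and 1 lower of 14 in IL-17C+ involved skin and 2 higher of 14 in IL-17C+KO uninvolved skin. Of 5 other inhibitors, Tfpi2 alone passed, in IL-17C+ involved skin (1.29 ± 0.27, adjusted p = 0.0328). Timp2 differed there by -0.80 ± 0.29 (adjusted p = 0.238).

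Genes upstream of MMP activity were called in part. Plaur, the receptor that gathers the plasminogen activator urokinase at the cell surface, rose in IL-17C+ involved skin (2.88 ± 0.43, adjusted p = 0.00508) and in IL-17C+KO uninvolved skin over WT (2.91 ± 0.43, adjusted p = 0.00537), as 1 of 5 plasminogen system genes in each. Among 7 inducers, 3 rose in IL-17C+ involved skin and 5 in IL-17C+KO uninvolved skin, Il1b by 5.88 ± 0.46 (adjusted p = 7.87e-05) and 5.78 ± 0.46 (adjusted p = 9.56e-05). No AP-1 subunit gene passed in either (0 of 6, limma), the smallest adjusted p being 0.0867 for Fosb at -1.43 ± 0.38 in IL-17C+ involved skin. Over all genes 1.8% and 1.39% were called in these comparisons, so 0 of 6 is close to that share. Fosl1, also on that list, had no row of its own. In IL-17C+ involved over IL-17C+ uninvolved skin 1 of the 6 was called lower, against 0.834% of all genes. Of 10 ADAM and ADAMTS genes 4 rose in IL-17C+ involved skin and 2 in IL-17C+KO uninvolved skin, among them Adam8, a protease of leukocytes, by 2.27 ± 0.33 and 2.08 ± 0.33 (adjusted p = 0.00389 and 0.00841).

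Matrix substrates split. The matrix protein Tnc rose by 5.26 ± 0.55 in IL-17C+ involved (adjusted p = 0.000582) and by 5.65 ± 0.55 in IL-17C+KO uninvolved skin over WT (adjusted p = 0.000327), and Col17a1 of the basement membrane zone fell by 1.43 (adjusted p = 0.0235) and by 1.45 (adjusted p = 0.0266). Each made 1 higher and 1 lower of 11. In IL-6KO skin 3 of 11 were lower, the fibrillar collagens Col1a2 (-2.29 ± 0.30, adjusted p = 0.00836), Col1a1 (-2.21 ± 0.30, adjusted p = 0.00904) and Col3a1 (-2.16 ± 0.32, adjusted p = 0.0141).

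Cell markers moved with several members. Of 11 neutrophil markers 5 rose in IL-17C+ involved skin and 5 in IL-17C+KO uninvolved skin over WT. The mean log2 level of the list was 5.88 and 6.15 in IL-17C+ involved skin. IL-17C+KO uninvolved skin had a mean of 5.87 and 6.37, against 4.01 and 3.49 in WT skin. In the other groups it lay between 3.52 and 4.74. The log2 of the summed intensities moved more, to 11.72 and 12.14 for IL-17C+ involved skin, with 11.69 and 12.20 for IL-17C+KO uninvolved skin, against 7.59 and 7.06 for WT skin. S100a8 and S100a9 hold most of that sum in the IL-17C+ involved and IL-17C+KO uninvolved pools. Of 5 granule genes made in neutrophil precursors, Mpo, Elane and Camp lay below the array median in all 12 pools, and Ltf above it in 2. The granule gene Ngp read 4.55 and 5.48 in IL-17C+ involved skin. It rose in IL-17C+KO uninvolved skin, to 5.52 and 6.97, against 3.97 and 3.74 in WT skin. S100a8, which keratinocytes also make, read 8.69 in the 14-week IL-17C+KO involved and 8.01 in the 14-week IL-6KO pool, where Mmp8 read 4.33 and 3.65. Macrophage markers had 0 of 8 called in both comparisons (limma), close to the 1.8% and 1.39% of all genes called in them. Within that list Itgam had group means of 7.13 in IL-17C+ involved and 7.17 in IL-17C+KO uninvolved skin, against 5.85 in WT. Adgre1 read lower there, at 5.83 and 6.12, against 6.84 in WT. Of 4 stressed keratinocyte markers 3 rose in each comparison. Of 7 mast cell markers 3 rose in IL-17C+ involved skin over WT and 0 passed in IL-17C+KO uninvolved skin. Of 5 basal keratinocyte markers 1 rose and 2 fell in IL-17C+ involved skin, and 2 fell in IL-17C+KO uninvolved skin.

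The mean of the fibroblast markers was lowest in the 4 pools where Mmp3 was lowest. The mean of 8 fibroblast markers was 9.15 and 9.14 in IL-17C+KO involved skin and 8.81 and 8.79 in IL-6KO skin, against 9.98 and 9.86 in WT skin. In IL-6KO over WT 3 of 8 were called lower. These are the collagens Col1a1, Col1a2 and Col3a1 already given as matrix substrates, so the 2 counts are 1 result. The other 5 were not called, with group means of 11.19 against 11.43 in WT for Dcn and 8.17 against 9.10 for Lum. IL-17C+ involved skin had 9.83 and 9.90, and IL-17C+KO uninvolved skin 9.85 and 10.02. Of 7 hair shaft markers 4 were called higher than WT in IL-6KO skin, 3 in skin labelled IL-17C+KO uninvolved, and 2 each at both IL-17C+ sites. In IL-17C+KO involved skin 3 were lower than in IL-17C+KO uninvolved skin. Against IL-6KO skin 6 of 7 were lower there, a comparison in which 0 of 10 members were called. Skeletal muscle markers fell in IL-17C+ involved skin over WT in 7 of 8, with a summed level of 12.01 and 11.61, against 13.76 and 14.43 in WT. In IL-17C+KO uninvolved skin it was 12.31 and 12.83, with 1 of 8 lower than WT. Timp3 was highest in WT and IL-17C+ uninvolved skin, where the muscle sum was also high (14.25 and 13.99 in IL-17C+ uninvolved skin). The order was not the same throughout. The 10-week IL-17C+KO involved pool had a muscle sum of 14.12, above the 13.76 of the 10-week WT pool. Its Timp3 was 7.69, below the 7.94 of that WT pool. With the mean of the muscle markers as a covariate, 0 of 10 members were called in either comparison over WT. The share of all genes called with the covariate is not given here, so the count of 0 cannot be set against it. In IL-17C+ involved skin the standard errors then lay between 0.58 and 0.81, against 0.31 to 0.43 without the covariate. The differences there were 3.21 for Mmp8, 3.37 for Mmp9, 2.91 for Mmp13, 2.34 for Timp1 and -0.93 for Timp3, so that of Mmp9 grew and the others shrank. In IL-17C+KO uninvolved skin they were 3.84 for Mmp8 (adjusted p = 0.0526), 3.07 for Mmp9 (adjusted p = 0.0536), 3.20 for Mmp13, 3.04 for Timp1 and -1.02 for Timp3. Apart from this covariate, the part of these cell markers in the members' levels was not tested.

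**Figure D4:**
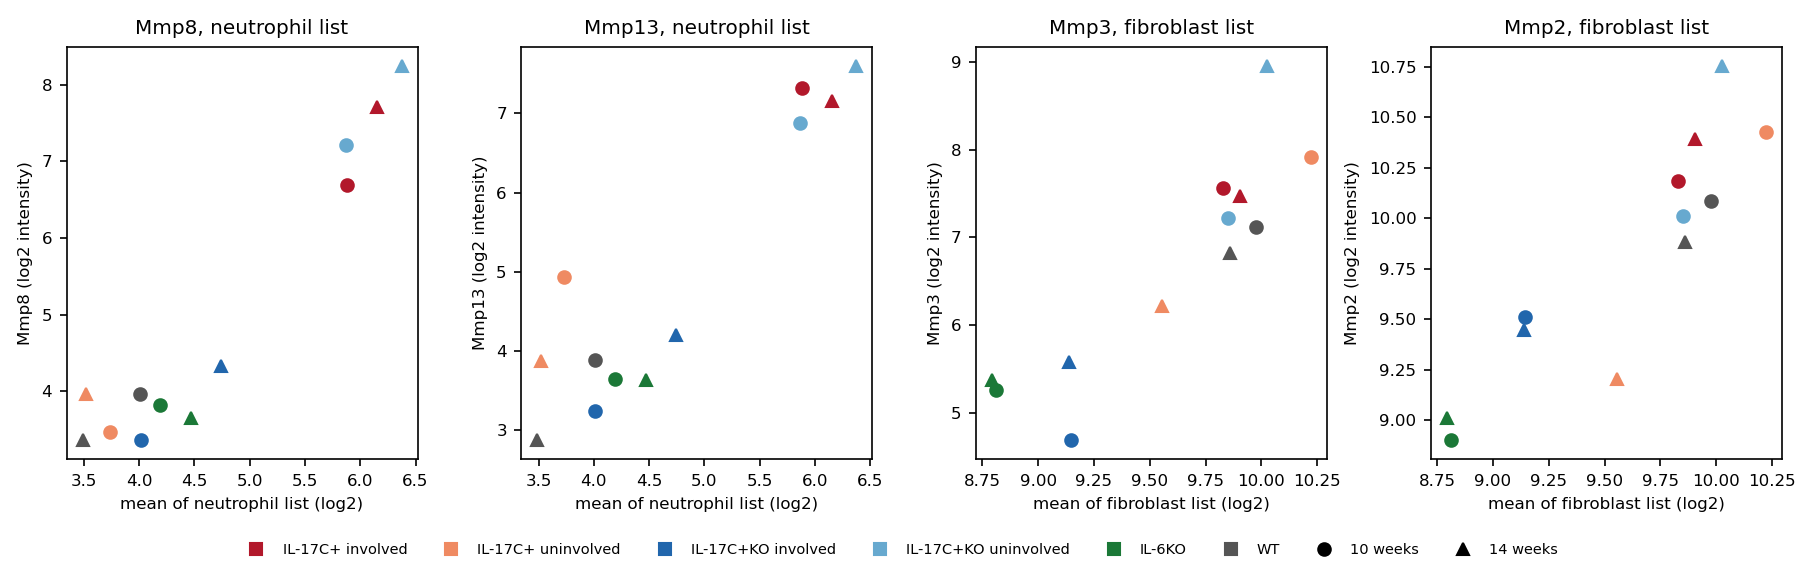
Log2 intensity of Mmp8, Mmp13, Mmp3 and Mmp2 (vertical axes) against the mean log2 level of the neutrophil or fibroblast marker list (horizontal axes) in the 12 pools, coloured by labelled group, with circles at 10 and triangles at 14 weeks. For Mmp8 and Mmp13 the IL-17C+ involved and IL-17C+KO uninvolved pools stand apart at the upper right, and for Mmp3 and Mmp2 the IL-6KO pools lie at the lower left.

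Genes with the most similar profile were found by the root mean square difference of centred log2 levels over the 12 pools, as a description. For Mmp8 (own SD 1.89) these were Trem1 at 0.32, Clec4e at 0.36 and Cxcl2 at 0.39, and for Mmp13 (own SD 1.78) Clec4e at 0.42, Cd14 at 0.43 and Cxcl5 at 0.44. Mmp9 (own SD 1.38) was closest to Mcemp1 at 0.36, Plaur at 0.38 and Nlrp3 at 0.41. Timp1 (own SD 1.57) was closest to Tnn at 0.43, Cxcl5 at 0.46 and Mmp13 itself at 0.47. Mmp3 (own SD 1.27) had Col5a2 at 0.41, Postn at 0.47 and Col6a3 at 0.51, all genes of the extracellular matrix. Mmp2 (own SD 0.60) had B4galt5 at 0.20, Col6a1 at 0.21 and Itga5 at 0.22. For Mmp14 (own SD 0.46) the closest were Fstl1 at 0.15, Ctss at 0.16 and Bmper at 0.19. The dim Mmp10 (own SD 0.67) had Adamts4 at 0.23, Pcsk5 at 0.28 and Olfm4 at 0.28. Mmp12 (own SD 0.55) had Ceacam1 at 0.24, Col28a1 at 0.24 and Ddah1 at 0.25. Timp3 (own SD 0.74) was closest to Akap12 at 0.20, Sgca at 0.21 and Shisa4 at 0.21, where Sgca codes for a sarcoglycan of muscle.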

How the data were processed

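RNA of pooled dorsal skin was read on 12 arrays. The authors deposited 1 table of array intensities, which according to the submitters' processing notes come from RMA in Affymetrix Expression Console. The sources used here do not give versions, build or probe filters. The intensities lie on a linear scale, so log2 was taken before any step. Of 41345 rows, 23521 name 1 gene. The row with the highest mean stood for a gene with several, leaving 22180 genes. The members, gene lists and tests were chosen with earlier results of these data known.

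Differences were fitted in R 4.3.3 with limma 3.58.1 (group plus age over all 12 arrays, eBayes with an intensity trend, 5 residual and 7.65 prior degrees of freedom), in 13 comparisons. Benjamini-Hochberg adjustment ran over all genes of a comparison. The fit was tested on simulated data. Age entered as a block because the labels give it. Deviations from the group means of same-age pools correlated between -0.212 and 0.523 over 15 pairs of groups. Alternatives were no age block, a block of genotype and age, no trend, a filter on dim genes, quantile normalization again, mean rows, a muscle covariate, and each pool left out. Leaving out both 10-week pools of 4 mice was added after seeing the data. All 10 members are named. From each further list up to 4 genes with the smallest adjusted p over WT were eligible, or 2 where none passed, and likeness was given for the 3 closest genes. Col1a1, Col1a2, Col3a1, Mpo, Elane, Camp, Ltf, Ngp, S100a8 and S100a9 are outside this rule and were named after their values were seen. So were Krt14, Krt10, Dcn, Lum, Itgam and Adgre1. Genes of the chromosome 9 run that are not members were named for their place in it. Promoter sequences are from RefSeq, GRCm38.p6. Genes on a list that had no single-gene row were not analysed here. The number of arrays limits the precision.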

Additional observations from a re-analysis of the deposited data

Results flagged for a closer look

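The difference between the 2 genotypes in how involved and uninvolved skin differ was tested by an interaction term, the site difference in IL-17C+KO mice minus that in IL-17C+ mice (limma, adjusted over 22180 genes). Of the collagenases, Mmp8 had -7.36 ± 0.53 (adjusted p = 1.1e-05) and Mmp13 -6.37 ± 0.61 (adjusted p = 0.000116). The gelatinase Mmp9 had -5.49 ± 0.48 (adjusted p = 5.34e-05). The inhibitor Timp1 had -6.03 ± 0.58 (adjusted p = 0.000121), and Timp3 had the opposite sign, 2.29 ± 0.43 (adjusted p = 0.0137). Both stromelysins were smaller, Mmp3 at -3.41 ± 0.79 (adjusted p = 0.0394) and Mmp10 at -2.52 ± 0.54 (adjusted p = 0.027). Without single pools of IL-17C+ uninvolved or IL-17C+KO uninvolved skin Mmp3 ranged from -4.49 to -2.32, and without those of IL-17C+KO uninvolved skin Mmp10 from -3.28 to -1.76. Without the 10- or 14-week IL-17C+KO involved pool Mmp13 had -5.73 and -7.00, and without the 10- or 14-week IL-17C+ involved pool Timp1 had -5.41 and -6.65. For Mmp8, Mmp9, Mmp13 and Timp1 both IL-17C+ involved pools lay above both IL-17C+ uninvolved pools, and both IL-17C+KO involved pools below both IL-17C+KO uninvolved pools. Site names are as labelled, and Il17c and Il6 too were higher in the pools labelled IL-17C+KO uninvolved than in those labelled IL-17C+KO involved. Whether these site labels are right was not tested.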

How the results depend on the processing

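The 40 member calls over all comparisons kept their sign under every alternative run. All 40 also passed with no replicate block, with dim genes left out (a gene had to exceed the median on 2 or more arrays) and with the rows of a gene averaged. Without the eBayes trend 38 passed, and 39 with quantile normalization again. Timp1 exceeded the median in 4 of 12 pools, all of them IL-17C+ involved or IL-17C+KO uninvolved. Mmp8 did so in 5 of 12, with these 4 among them. Both entered the filtered fit through pools where they were high, so this alternative does not test their dim WT levels. The 17 calls of site comparisons and the interaction all passed with a replicate block of genotype and age on the transgenic arrays, where 5, 5 and 7 members were called. Without the 10-week WT and IL-6KO pools together 37 of 40 passed.

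With the mean level of the muscle markers as a covariate, 12 of 40 passed. The members called then numbered 0 for IL-17C+ involved over WT, 0 for IL-17C+ involved over IL-17C+ uninvolved and 0 for IL-17C+KO uninvolved over WT. They numbered 1 for IL-17C+KO involved over IL-17C+ involved, 1 for IL-17C+KO uninvolved over IL-17C+ uninvolved and 2 for the interaction. The covariate differs between the groups, and standard errors grew, for Mmp8 from 0.37 to 0.75 in IL-17C+ involved over WT. A call lost with it therefore does not show that the difference went away.

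With each pool left out in turn, the members called ranged from 3 to 5 for IL-17C+ involved over WT, 2 to 5 for IL-17C+ involved over IL-17C+ uninvolved, and 3 to 5 for IL-17C+KO uninvolved over WT. The ranges were 1 to 6 for IL-17C+KO uninvolved over IL-6KO and for IL-17C+KO involved over IL-17C+KO uninvolved. They were 3 to 5 for IL-17C+KO involved over IL-17C+ involved and for IL-17C+KO uninvolved over IL-17C+ uninvolved, and 4 to 7 for the interaction. The other 5 comparisons stayed at 0 members. A pool that stands alone after this is assumed to vary like the other groups. The share of all genes called in each such fit is not given, here or in the results above. A lower member count with a pool left out therefore cannot be told from a loss of calls over all genes. Mmp8, Mmp13 and Timp1 in low pools lie near the array median, which limits the precision of their folds.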
